A study of Mus musculus with 16 samples.

Results

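The sorted cells of embryoid bodies (EBs) treated with doxycycline (Dox) alone were compared after 8 days of Dox, on culture day 12, with those sorted after 4 days of Dox, on day 8. Members were all arrays whose labels give Dox alone as the treatment: 3 day 12 arrays and 3 day 8 arrays, 6 of the 16 arrays in the series, each read across 22180 genes. All cells came from the mouse embryonic stem cell line iGPA-Myo7a:mVenus, which carries Gfi1, Pou4f3 and Atoh1 under the control of Dox. The same line makes the fluorescent protein mVenus from a Myo7a promoter. Cells with mVenus signal, called induced hair cells (iHCs), were collected by flow cytometry from floating EBs, so a cell had to use the Myo7a promoter to be measured at either day. Beside the Dox iHCs of day 12 (n = 3) and day 8 (n = 3), the series holds Dox iHCs also given retinoic acid (Dox+RA iHCs) of day 12 (n = 3) and day 8 (n = 3), and control EBs of the same line, with neither Dox nor RA and unsorted, of day 12 (n = 2) and day 8 (n = 2). The submitters call the replicates biological and the RNA preparations independent. Length of treatment and age of the culture increased together and cannot be told apart.

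Hair cells of the inner ear turn sound and head movement into signals through a bundle of actin-filled stereocilia, whose tips are joined by tip links that pull on mechanotransduction channels. Atoh1 starts hair cell differentiation, and Pou4f3 and Gfi1 act downstream of it in survival and maturation, with Gfi1 also holding back neuronal genes. In the inner ear, Notch signalling between neighbours keeps cells from becoming hair cells, and a differentiating hair cell leaves the cell cycle for good. Bundle genes, channels and synaptic genes are switched on in sequence after that exit.

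Levels are log2 RMA signals, in which 1 unit is 1 doubling, and differences are day 12 minus day 8 on that scale with limma's standard error. A gene was called at a Benjamini-Hochberg adjusted p under 0.05 from limma over all genes. Replicates of a day correlated across genes at 0.982 to 0.994 at day 12 and 0.988 to 0.993 at day 8, and arrays of different days at 0.966 to 0.989. The median SD of a gene was 0.135 at day 12 and 0.121 at day 8. Arrays of equal replicate number varied together (r of their deviations 0.441, 0.352 and 0.513), so counts from a fit with a replicate block stand beside the main ones where they differ by over 1.5 times. Replicates differed in their content. Of the Dox arrays of each day, replicate 1 had the highest mean of the tip link and mechanotransduction list (7.13 at day 12, 6.56 at day 8). It also had the lowest mean of the mitosis list (5.14 and 5.84). The endoderm and yolk sac list averaged 5.02, 5.10 and 5.74 at day 12, against 5.17, 5.32 and 5.75 at day 8, and the highest value of each day was that of replicate 3. Afp, a yolk sac and fetal liver protein, had 4.60, 4.83 and 6.97 at day 12, against 4.63, 4.89 and 5.43 at day 8. The immediate early and dissociation stress list averaged 7.41, 7.49 and 8.55 at day 12, against 7.65, 7.85 and 8.01 at day 8, so day 12 replicate 3 lay above every other Dox array on it.

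Between the days, 1785 of 22180 genes were called (8.05%): 751 were higher at day 12 (3.39%) and 1034 lower (4.66%). Among the gene lists, members that rose were most frequent in the tip link and mechanotransduction list (6 of 11) and the stereocilia list (12 of 28). Members that fell were most frequent in the mitosis list (27 of 29), the DNA replication list (13 of 28) and the imprinted and insulin-like growth factor list (8 of 18). Of these calls, 277 (1.25%) reached 2-fold, 105 upward and 172 downward, and the median size of a called difference was 0.62. With the replicate block 3139 genes (14.2%) were called, 1352 higher (6.1%) and 1787 lower (8.06%), and all 1785 were among them in the same direction. Arrays of the days did not overlap in 1677 of the called genes (7.56% of all genes). Among all 22180 genes, called or not, they did not overlap in 5149 (23.2%), so a lack of overlap alone was frequent. Most called genes had no overlap, so a lack of overlap adds little to a call. It was also a condition of the rule for the largest rises and falls. That rule picked, among others, Lhfpl5, Loxhd1, Chrna10, Isl1, Lgr5, Ndc80, Sst, Ntrk3 and Nefl. The count of called genes was 644 without day 12 replicate 1, 982 without day 12 replicate 2, 705 without day 8 replicate 2 and 784 without day 8 replicate 3. It was 2598 without day 12 replicate 3, 1992 without day 8 replicate 1 and 1576 without replicate 3 at both days. A fit of the 6 Dox arrays alone called 420 genes, and 2994 with a replicate block. Without the block it had 7 falling mitosis genes, 1 falling DNA replication gene and 1 falling Notch gene. Rising stereocilia genes numbered 3 and rising tip link genes 2 in it. Calls said below to hold without each array refer to the fit of all 16 arrays. Some of these calls, among them those of Elmod1, Ntng2, Nefl, Grb10 and Lgr5, were lost in the fit of the 6 Dox arrays alone. RNA came from sorted cells in bulk, so fewer cells of a type and less RNA per cell cannot be told apart in any fall described here. Likewise a larger share of a cell type and more RNA per cell cannot be told apart in any rise.

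The factors that Dox switches on and the gene of the sort gate are given first. Gfi1 had 11.26, 11.12 and 10.88 at day 12, against 11.11, 11.06 and 10.98 at day 8. Pou4f3 had 11.49, 11.47 and 11.18 at day 12, against 11.40, 11.27 and 11.27 at day 8. Atoh1 had 11.36, 11.34 and 10.98 at day 12, against 10.99, 10.88 and 10.91 at day 8. The arrays of the days overlapped for all 3 factors. Myo7a, a hair cell myosin and the gene behind the reporter, had 8.51, 8.10 and 8.43 at day 12, against 8.48, 7.63 and 7.76 at day 8, also with overlap. None of these differences passed the test: they were 0.03 ± 0.10 for Gfi1, 0.07 ± 0.17 for Pou4f3, 0.30 ± 0.13 for Atoh1 and 0.39 ± 0.25 for Myo7a, with adjusted p from 0.186 to 0.901. Atoh1 passed without day 12 replicate 3 (adjusted p = 0.0472), and also with array weights, in which 1 of the 4 genes was called. The mean of these 4 genes was 10.37 to 10.65 on the day 12 Dox arrays and 10.21 to 10.49 on the day 8 Dox arrays, against 5.50 and 5.54 in day 12 control EBs and 5.67 and 5.80 in day 8 control EBs. Probes for these genes may read the introduced and the resident copy alike.

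The label of hair cell-like cells was checked on markers that the sort did not use. Cdh23, a tip link cadherin, averaged 8.99 ± 0.11 at day 12 and 8.34 ± 0.36 at day 8 in Dox iHCs, against 4.15 ± 0.13 and 4.36 ± 0.12 in control EBs of the same days. Myo15, the stereocilia-tip myosin, averaged 8.98 ± 0.43 and 8.14 ± 0.59, against 4.38 ± 0.47 and 4.58 ± 0.05 in control EBs. Otof, the calcium sensor of hair cell exocytosis, averaged 7.82 ± 0.58 and 6.92 ± 0.92, against 4.76 ± 0.11 and 4.55 ± 0.25 in control EBs. Lists of other cell types were above control EBs too. The Merkel cell list, which includes Atoh1, averaged 7.93 at day 12 and 7.78 at day 8 in Dox iHCs, against 5.89 and 5.97. The neuronal list averaged 5.842 and 6.138, against 4.998 and 4.775. Slc26a5, the motor protein of outer hair cells known as prestin and named after its values were seen, lay at 3.47, 3.41 and 3.44 at day 12, against 3.41, 3.37 and 3.40 at day 8, within the range of the control EBs (3.25 to 3.47). Alb, a hepatocyte marker, had 4.26, 3.99 and 4.12 at day 12, against 4.09, 3.84 and 4.07 at day 8, and Ptprc, the pan-leukocyte CD45, had 3.02, 3.07 and 2.86 at day 12, against 2.91, 3.11 and 3.01 at day 8; the days overlapped for both.

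Rises were frequent among genes of the mechanotransduction apparatus. Of 11 measured members of the tip link and mechanotransduction list, 6 rose (54.5% of the list, against 3.39% of all genes) and 0 fell, with a median difference of 0.51 against 0.01 over all genes. Myo7a, the gene of the sort gate, is among the 11 and was not called. Lhfpl5, a tetraspan subunit that joins the tip link to the channel, had 8.39, 7.64 and 7.46 at day 12, against 6.60, 5.65 and 5.75 at day 8. Every day 12 array lay above every day 8 array, and the means differed by 1.83 ± 0.29 (adjusted p = 0.00295). Ush1g, the scaffold protein SANS of the upper tip link density, had 6.67, 6.56 and 6.32 at day 12, against 5.83, 5.42 and 5.31 at day 8, again with no overlap. It rose by 1.0 ± 0.14 (adjusted p = 0.00182). The channel genes themselves were also higher. Tmc2, the channel subunit that comes first in development, had 7.78, 7.31 and 6.46 at day 12, against 6.45, 6.15 and 5.46 at day 8. The difference was 1.16 ± 0.29 (adjusted p = 0.0244). Tmc1, which follows it, had 5.17, 4.86 and 4.50 at day 12, against 4.31, 4.15 and 4.15 at day 8. The difference was 0.64 ± 0.16 (adjusted p = 0.0271). The days touched in Tmc2, with the lowest day 12 array only just above the highest day 8 array, and stood apart in Tmc1. Cdh23 rose by 0.66 ± 0.17 (adjusted p = 0.0324) with 9.09, 9.02 and 8.87 at day 12, against 8.74, 8.04 and 8.22 at day 8, and Tmie, a channel subunit, by 0.51 ± 0.15 (adjusted p = 0.0499). The second tip link cadherin, Pcdh15, named after its value was seen, was the lowest member at -0.33 ± 0.11 (adjusted p = 0.0978). The list had 2 called members without any one of day 12 replicate 1, day 12 replicate 2, day 8 replicate 2 or day 8 replicate 3, and 4 without replicate 3 at both days. It had 6 that rose without either of the remaining arrays, and without day 8 replicate 1 Pcdh15 fell (adjusted p = 0.0442). Ush1g and Lhfpl5 kept their calls without each array in turn, with adjusted p up to 0.0144 and 0.0206, and Tmc2, Tmc1, Cdh23 and Tmie lost theirs without any of the first 4 arrays (adjusted p up to 0.126, 0.142, 0.152 and 0.211).

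**Figure D1:**
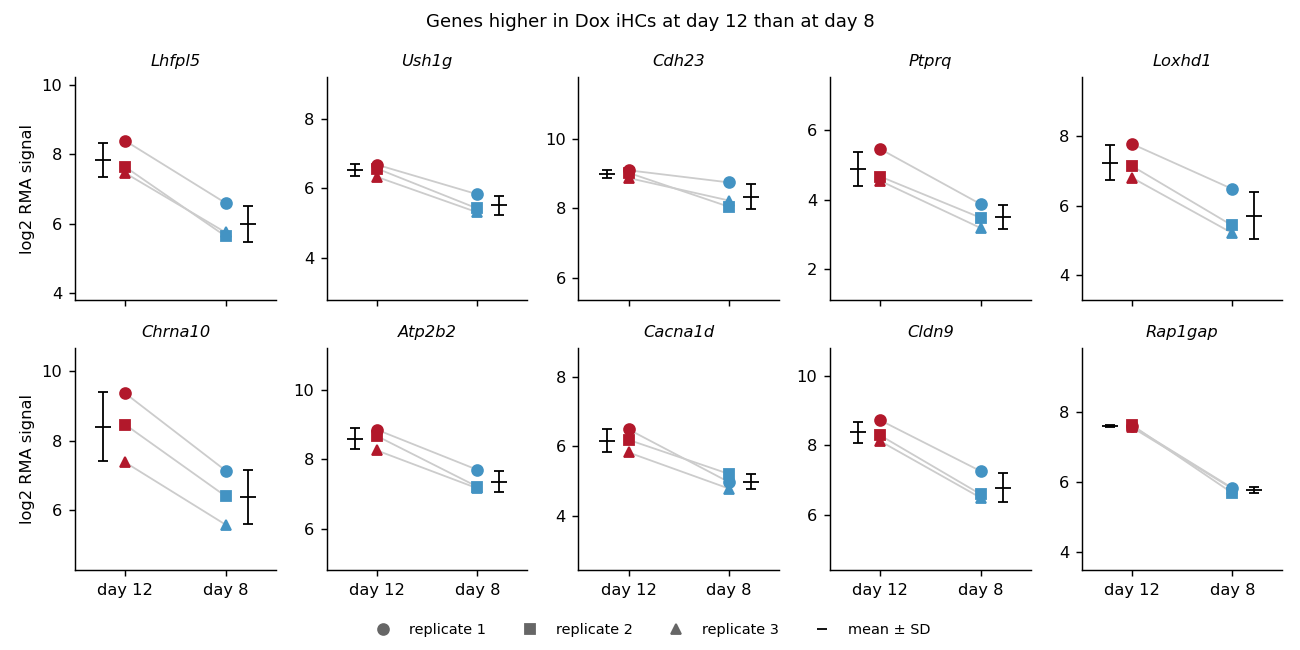
Log2 RMA signal of 10 genes that rose, with the 3 Dox iHC arrays of day 12 on the left of each panel and the 3 of day 8 on the right, grey lines joining equal replicate numbers and black bars giving the mean ± SD. In Rap1gap the day 12 arrays lie at 7.57 to 7.64 and the day 8 arrays at 5.68 to 5.83, while in Chrna10 replicate 1 of day 8 (7.14) lies close to replicate 3 of day 12 (7.38).

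Stereocilia genes rose in part. Of 28 measured members of the list of stereocilia actin regulators, myosins and links, 12 rose (42.9%, against 3.39% of all genes) and 0 fell, with a median difference of 0.51. With the replicate block 15 rose and 1 fell, against 6.1% and 8.06% of all genes. Ptprq, a phosphatase of the shaft connectors between stereocilia, had 5.45, 4.66 and 4.54 at day 12, against 3.87, 3.48 and 3.18 at day 8. It rose by 1.37 ± 0.24 (adjusted p = 0.00416) with no overlap. Loxhd1, needed for hearing and found along stereocilia, had 7.78, 7.14 and 6.81 at day 12, against 6.48, 5.43 and 5.21 at day 8. It rose by 1.53 ± 0.38 (adjusted p = 0.0235). Clrn1, the Usher syndrome protein clarin 1, had 6.76, 6.25 and 5.75 at day 12, against 5.44, 4.94 and 4.93 at day 8, and Elmod1, a GTPase activator that keeps stereocilia in shape, had 6.19, 5.24 and 5.39 at day 12, against 4.92, 4.43 and 4.36 at day 8. These rose by 1.15 ± 0.30 and 1.04 ± 0.21, each with every day 12 array above every day 8 array. Pdzd7, a scaffold of the ankle links at the bundle's base, rose by 0.78 ± 0.19 (adjusted p = 0.0221), and Myo3b, a myosin of stereocilia tips, by 1.01 ± 0.29 (adjusted p = 0.0458) with overlapping arrays. Espn, an actin bundler, had 7.08, 6.93 and 6.80 at day 12, against 6.84, 6.53 and 6.65 at day 8. The difference was 0.26 ± 0.13 (adjusted p = 0.254), which did not pass the test. Myo15 missed the threshold at 0.85 ± 0.26 (adjusted p = 0.0576) and passed with the replicate block (adjusted p = 0.00591). Grxcr2, a bundle protein named after its values were seen, spread widely within a day at 7.98, 7.14 and 5.14 at day 12, against 5.72, 5.31 and 4.63 at day 8. The difference was 1.53 ± 0.69 (adjusted p = 0.212), which passed only with the block (adjusted p = 0.00138). Rising members numbered 3 without day 12 replicate 1, 6 without day 12 replicate 2, 3 without day 8 replicate 2, 5 without day 8 replicate 3 and 9 without replicate 3 at both days. Ptprq and Elmod1 kept their calls without each array in turn, and Loxhd1, Clrn1, Pdzd7 and Myo3b lost theirs without any one of day 12 replicates 1 and 2 and day 8 replicates 2 and 3 (adjusted p up to 0.121, 0.154, 0.104 and 0.219).

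Ion channels, calcium handling and the synapse moved in part. The late hair cell list had 3 of 20 members higher (15%) and 0 lower, and the ribbon synapse list 4 of 23 higher (17.4%) and 1 lower, with 10 higher and 1 lower under the replicate block. Shares over all genes were 3.39% higher and 4.66% lower, and 6.1% and 8.06% under the block. Chrna10, a subunit of the acetylcholine receptor that takes efferent input, had 9.36, 8.46 and 7.38 at day 12, against 7.14, 6.41 and 5.59 at day 8, at 2.02 ± 0.52 (adjusted p = 0.0301) the largest rise among these members. Its partner subunit Chrna9, chosen after its values were seen, had 6.44, 5.39 and 5.14 at day 12, against 5.82, 5.17 and 4.92 at day 8, with overlap and a difference of 0.35 ± 0.36 (adjusted p = 0.644). Atp2b2, the calcium pump of the bundle membrane, had 8.85, 8.66 and 8.25 at day 12, against 7.70, 7.21 and 7.16 at day 8. It rose by 1.23 ± 0.16 (adjusted p = 0.000914). Cacna1d, the pore of the calcium channel at hair cell synapses, had 6.48, 6.19 and 5.82 at day 12, against 4.97, 5.21 and 4.79 at day 8. It rose by 1.18 ± 0.22 (adjusted p = 0.00533). In both genes the days did not overlap and the call held without each array in turn. Pclo, the active zone protein piccolo, rose by 0.93 ± 0.15 (adjusted p = 0.00327), Rab3c, a vesicle GTPase, by 1.17 ± 0.30 (adjusted p = 0.0282) and Snap25, a membrane fusion protein, by 0.71 ± 0.19 (adjusted p = 0.0379). Ctbp2, whose gene also encodes the ribbon protein RIBEYE, fell by 0.57 ± 0.16 (adjusted p = 0.0431); the array value does not separate its transcripts. Otof had 8.44, 7.74 and 7.29 at day 12, against 7.93, 6.68 and 6.15 at day 8, overlapping between the days. The difference was 0.90 ± 0.42 (adjusted p = 0.232), which passed with the block (adjusted p = 0.00392). Rising members of the synapse list numbered 2 without any one of day 12 replicate 1, day 12 replicate 2, day 8 replicate 2 or day 8 replicate 3, but 10 without day 12 replicate 3 and 9 without day 8 replicate 1. The late hair cell list had 1 without the same 4 arrays, and Chrna10 (adjusted p up to 0.154), Rab3c (0.143), Snap25 (0.17) and Ctbp2 (0.194) lost the call without any one of those 4.

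Among all genes with non-overlapping arrays, the 20 largest rises included, beside Chrna10, Lhfpl5 and Loxhd1, several membrane and channel genes outside these lists. Rap1gap, which switches off the small GTPase Rap1, had 7.60, 7.64 and 7.57 at day 12, against 5.83, 5.68 and 5.81 at day 8, the tightest of them. It rose by 1.83 ± 0.15 (adjusted p = 5.44e-05). Cbln2, a secreted synapse organiser of the cerebellin family, had 8.27, 8.61 and 8.12 at day 12, against 6.78, 6.55 and 6.68 at day 8. It rose by 1.66 ± 0.13 (adjusted p = 5.44e-05). Cldn9, a tight junction claudin of the inner ear, had 8.72, 8.28 and 8.11 at day 12, against 7.25, 6.59 and 6.49 at day 8. It rose by 1.59 ± 0.22 (adjusted p = 0.00169). Groups without overlap were a condition for these 3 to be picked. The voltage-gated channel genes Kcnh6 and Kcnh5 rose by 1.47 ± 0.30 and 1.46 ± 0.30, the sodium channel subunit Scn3b by 1.61 ± 0.34, the calcium channel subunit Cacna2d1 by 1.56 ± 0.38 and the glutamate receptor partner Cnih3 by 1.83 ± 0.43. Kncn, the kinocilium protein kinocilin, had 9.16, 8.54 and 7.63 at day 12, against 7.27, 7.10 and 6.39 at day 8. It rose by 1.52 ± 0.33 (adjusted p = 0.0125). Nptx1, a pentraxin of excitatory synapses, rose by 1.48 ± 0.23, Tafa1, a secreted neural protein, by 1.70 ± 0.31, Ntng2, a netrin-related membrane protein, by 1.52 ± 0.27, and Hfm1, a helicase known from meiosis, by 1.66 ± 0.28. Fbxo2, an inner ear ubiquitin ligase subunit and the 1 member of the otic and supporting cell list to rise among 28 (3.57%, against 3.39% of all genes), had 8.50, 8.25 and 8.04 at day 12, against 7.43, 7.08 and 6.93 at day 8. It rose by 1.12 ± 0.21 (adjusted p = 0.00588). Calls of Cacna2d1 and Cnih3 were lost without any one of day 12 replicates 1 and 2 and day 8 replicates 2 and 3 (adjusted p up to 0.107 and 0.102). Those of Kcnh6, Kcnh5, Scn3b and Kncn were lost without day 12 replicate 1 (adjusted p 0.0508, 0.051, 0.0636 and 0.0668), that of Kcnh6 also without day 8 replicate 2 and those of Scn3b and Kncn also without day 8 replicate 3. Rap1gap, Cbln2, Cldn9, Nptx1, Tafa1, Ntng2, Hfm1 and Fbxo2 kept theirs without each array in turn.

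Merkel cells, the touch receptors of skin, share Atoh1 and many genes with hair cells, and their list went both ways, with 3 of 12 higher (25%) and 2 lower (16.7%). Krt20, a keratin that marks them, had 7.85, 7.77 and 7.27 at day 12, against 6.70, 6.22 and 6.50 at day 8. It rose by 1.15 ± 0.23 (adjusted p = 0.00738) with no overlap, and Cck, a neuropeptide, rose by 0.54 ± 0.15 (adjusted p = 0.0356), a call lost without day 12 replicates 1 or 2 or day 8 replicates 2 or 3 (adjusted p up to 0.167). The hair cell transcription and RNA regulator list was also divided, with 3 of 22 higher and 3 lower (13.6% each), and 5 lower with the replicate block. Beside both lists, the shares of all genes were 3.39% higher and 4.66% lower, with 8.06% lower under the block. Srrm3, a splicing factor of neural microexons, had 7.28, 7.15 and 6.50 at day 12, against 6.35, 6.20 and 5.90 at day 8. It rose by 0.83 ± 0.17 (adjusted p = 0.0101), and Srrm4, its relative that controls splicing in hair cells, rose by 0.68 ± 0.20 (adjusted p = 0.0487) with overlapping arrays. Against these, Isl1, a LIM homeodomain factor of early sensory cells and neurons, had 7.55, 8.24 and 8.47 at day 12, against 9.72, 10.24 and 9.93 at day 8. The difference was -1.87 ± 0.30 (adjusted p = 0.00317), and the highest day 12 array lay over 1 unit below the lowest day 8 array. Pou4f1, the neuronal relative of Pou4f3, had 7.94, 7.97 and 7.94 at day 12, against 8.69, 8.79 and 8.51 at day 8. It fell by 0.72 ± 0.11 (adjusted p = 0.00243). No array overlapped there. The calls of Isl1, Pou4f1 and Krt20 held without each array in turn, and those of Srrm3 and Srrm4 did not (adjusted p up to 0.0589 without day 12 replicate 1 for Srrm3, also lost without day 8 replicate 3, and 0.222 for Srrm4, also lost without day 12 replicate 2 and day 8 replicates 2 and 3).

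**Figure D2:**
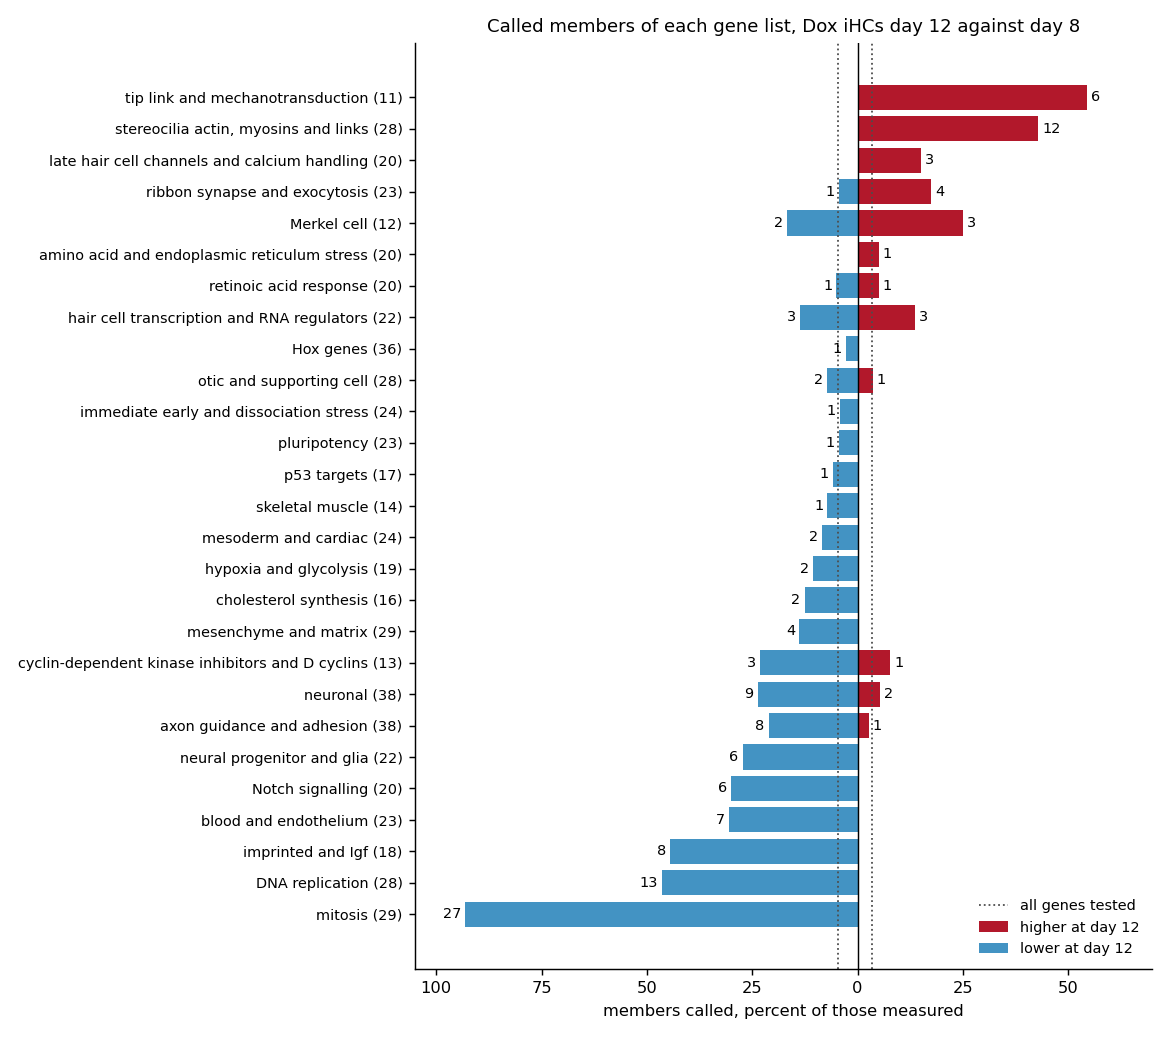
Share of each list's measured members (number in brackets) that were called, higher at day 12 in red to the right and lower at day 12 in blue to the left, in percent, with the number of called members at each bar and dotted lines at the shares of all genes tested (3.39% higher, 4.66% lower). The tip link list reaches 54.5% on the right and the mitosis list 93.1% on the left, and lists with no called member are not drawn.

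Genes of cell division fell together. Of 29 measured genes of the mitosis list 27 fell (93.1%, against 4.66% of all genes) and 0 rose, all 29 differences were below 0, from -1.60 to -0.51, and the median was -1.02. With the replicate block all 29 fell. The mean of the list on each array was 5.14, 5.32 and 5.56 at day 12, against 5.84, 6.44 and 6.76 at day 8, so the days did not overlap. In control EBs it was 8.05 and 8.01 at day 12, against 8.07 and 8.41 at day 8, well above any Dox array. Cdk1, the kinase that drives entry into mitosis, had 5.42, 5.71 and 5.80 at day 12, against 6.42, 7.09 and 7.53 at day 8. It fell by 1.37 ± 0.22 (adjusted p = 0.00272). Top2a, the topoisomerase that untangles chromosomes, had 5.55, 5.92 and 5.91 at day 12, against 6.73, 7.22 and 7.55 at day 8. It fell by 1.37 ± 0.18 (adjusted p = 0.00115). Ndc80, of the kinetochore, fell by 1.60 ± 0.27, Tpx2, of the spindle, by 1.27 ± 0.16 and Mki67, the antigen of dividing cells, by 1.10 ± 0.22. All 5 had every day 12 array below every day 8 array. The number of falling members was 14 without day 12 replicate 1, 18 without day 12 replicate 2, 14 without day 8 replicate 2, 13 without day 8 replicate 3 and 21 without replicate 3 at both days; Cdk1, Top2a, Ndc80 and Tpx2 kept their calls in each case that left out 1 array. The list was written with earlier results of these data known and its direction is not independent evidence.

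The promoters of 4 genes of that list are printed because they hold both elements known from genes of late cell division: the CHR, read by the DREAM and MuvB complexes and known for repression in resting cells, and the CCAAT box, read by the activator NF-Y. Sequences are from RefSeq, build GRCm38.p6, from 250 bases before the gene's start to 50 after, on the gene's strand, with TTTGAA (reverse complement TTCAAA) and CCAAT (reverse complement ATTGG) in capitals. Cdk1 lies at chr10:69352863-69353162 and Ccnb2, cyclin B2, at chr9:70421505-70421804, Cdc20, an activator of the anaphase-promoting complex, at chr4:118437294-118437593 and Top2a at chr11:99024140-99024439, all on the minus strand. Ccnb2 and Cdc20 were picked as textbook examples after their values were seen.
Cdk1: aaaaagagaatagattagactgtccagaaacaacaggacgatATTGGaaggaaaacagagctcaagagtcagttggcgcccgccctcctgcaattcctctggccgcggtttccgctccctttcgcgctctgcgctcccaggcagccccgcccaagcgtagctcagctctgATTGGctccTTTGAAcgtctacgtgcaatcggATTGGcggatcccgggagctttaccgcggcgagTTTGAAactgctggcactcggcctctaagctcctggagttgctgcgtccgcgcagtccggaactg
Ccnb2: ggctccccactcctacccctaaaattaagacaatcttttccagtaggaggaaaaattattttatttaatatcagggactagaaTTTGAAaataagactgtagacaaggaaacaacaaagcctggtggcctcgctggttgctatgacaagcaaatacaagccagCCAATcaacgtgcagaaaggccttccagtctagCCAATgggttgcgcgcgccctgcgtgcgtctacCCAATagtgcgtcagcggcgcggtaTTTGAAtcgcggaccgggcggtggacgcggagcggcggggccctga
Cdc20: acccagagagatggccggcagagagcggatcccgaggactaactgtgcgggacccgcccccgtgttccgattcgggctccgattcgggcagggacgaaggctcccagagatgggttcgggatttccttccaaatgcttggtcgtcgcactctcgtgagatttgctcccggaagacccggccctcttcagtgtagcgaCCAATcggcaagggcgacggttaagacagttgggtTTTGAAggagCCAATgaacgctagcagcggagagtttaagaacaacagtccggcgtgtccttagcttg
Top2a: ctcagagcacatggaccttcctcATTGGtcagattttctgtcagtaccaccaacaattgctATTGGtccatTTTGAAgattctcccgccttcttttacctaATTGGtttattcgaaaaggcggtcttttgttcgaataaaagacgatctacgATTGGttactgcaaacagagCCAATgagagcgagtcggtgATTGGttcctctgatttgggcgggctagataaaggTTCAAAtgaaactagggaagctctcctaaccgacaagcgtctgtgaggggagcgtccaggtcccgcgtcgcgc
Each held 1 or 2 CHR matches and 2 or more CCAAT matches, 3 in Cdk1, 3 in Ccnb2, 2 in Cdc20 and 6 in Top2a, and in Cdk1 and Cdc20 a CHR lay 15 and 18 bases before the start. Ccnb2 had 6.02, 6.19 and 6.47 at day 12, against 6.92, 7.60 and 7.71 at day 8, and Cdc20 had 5.86, 6.02 and 6.42 at day 12, against 6.57, 7.48 and 7.71 at day 8, falls of 1.19 ± 0.18 and 1.16 ± 0.23 with no overlap. Of the 24 mitosis genes with a promoter in the table, 19 held the CHR letters (79.2%, against 15.8% of 16918 tested genes), 18 the CCAAT letters (75%, against 38.4%) and 16 both (66.7%, against 6.4%). Both motifs were searched on both strands, and no match overlaps another in the printed windows. A match of letters is a description of these windows and not a measured binding site.

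Replication genes fell less evenly. Of 28 measured members, 13 fell (46.4%, against 4.66% of all genes) and 0 rose, with a median of -0.52. With the block 17 fell, against 8.06% of all genes. Mcm5 and Mcm3, subunits of the replicative helicase, fell by 1.17 ± 0.25 and 1.09 ± 0.22, and Uhrf1, which maintains DNA methylation at the fork, had 6.02, 6.05 and 6.18 at day 12, against 6.63, 6.92 and 7.14 at day 8. It fell by 0.81 ± 0.14 (adjusted p = 0.00447). Myc, the growth-promoting transcription factor, had 5.30, 5.96 and 6.41 at day 12, against 7.00, 7.78 and 7.69 at day 8. It fell by 1.60 ± 0.25 (adjusted p = 0.00248), and Ccnd1, cyclin D1, had 5.64, 5.74 and 6.29 at day 12, against 6.77, 7.06 and 7.13 at day 8. It fell by 1.10 ± 0.21 (adjusted p = 0.00577). In these 3 the days were apart, which for Myc, taken from the 20 largest falls, was a condition of the choice. The list of cyclin-dependent kinase inhibitors and D cyclins, which also holds Rbl1 and Rbl2, gave no common direction. Of its 13 measured members 1 rose (7.69%, against 3.39% of all genes) and 3 fell (23.1%, against 4.66%). Rbl2, the pocket protein p130 of resting cells, had 7.26, 7.20 and 7.26 at day 12, against 6.74, 6.58 and 6.70 at day 8. It rose by 0.57 ± 0.10 (adjusted p = 0.00398), and its relative Rbl1, p107, fell by 0.48 ± 0.13 (adjusted p = 0.04). Cdkn1c, the inhibitor p57, had 6.84, 7.47 and 7.90 at day 12, against 8.66, 8.92 and 8.64 at day 8. It fell by 1.33 ± 0.23 (adjusted p = 0.00388), which was the largest fall of the 13 members of that list. Cdkn1b, the inhibitor p27 that holds hair cells and supporting cells out of division, named after its values were seen, had 8.24, 8.38 and 8.03 at day 12, against 8.41, 8.10 and 8.11 at day 8 with overlap, a difference of 0.01 ± 0.13 (adjusted p = 0.985). Falling replication genes numbered 4 without day 12 replicate 1, 8 without day 12 replicate 2, 7 without day 8 replicate 2 and 4 without day 8 replicate 3. Mcm5 and Rbl1 were among the genes that lost the call, Mcm5 without day 12 replicate 1 or day 8 replicate 3 and Rbl1 without any 1 array but day 8 replicate 1.

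Notch signalling genes fell in part. Of 20 measured members, 6 fell (30%, against 4.66% of all genes) and 0 rose, with a median of -0.37 and 16 of 20 below 0. With the block 8 fell, against 8.06% of all genes. The falls took in receptors and the repressors they switch on. Hey1, a target gene of Notch, had 6.60, 7.19 and 7.43 at day 12, against 8.35, 8.56 and 8.49 at day 8. It fell by 1.39 ± 0.21 (adjusted p = 0.00217). Hes5, a Notch target of inner ear supporting cells, had 5.90, 6.13 and 5.97 at day 12, against 6.68, 7.40 and 6.66 at day 8. It fell by 0.91 ± 0.20 (adjusted p = 0.0144), and Hes1 had 5.38, 5.63 and 6.16 at day 12, against 6.30, 6.72 and 6.97 at day 8. It fell by 0.94 ± 0.25 (adjusted p = 0.0324). No day 12 array reached a day 8 array in any of the 3. The receptors Notch2 and Notch1 fell by 1.10 ± 0.25 and 0.54 ± 0.12, and the target Heyl by 0.61 ± 0.17. No ligand passed the test: Dll1, Dll3, Dll4, Jag1 and Jag2, named here as the whole ligand set, had differences of 0.29, -0.41, -0.18, -0.57 and 0.40, with adjusted p from 0.141 to 0.547. Falling members numbered 1 without day 12 replicate 1 or day 8 replicate 2, 4 without day 12 replicate 2 and 3 without day 8 replicate 3; Hey1 kept its call without each array in turn, and Hes5, Hes1, Notch2, Notch1 and Heyl lost theirs without at least 1 (adjusted p up to 0.072, 0.157, 0.0711, 0.0797 and 0.185).

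The promoter of Hes5 is shown because Hes5 is a known Notch target and the window holds 2 matches to the motif of RBPJ, the DNA-binding factor of the pathway. It lies at chr4:154960673-154960972 on the plus strand (RefSeq, GRCm38.p6, 250 bases before the start to 50 after), with GTGGGAA and its reverse complement TTCCCAC in capitals.
Hes5: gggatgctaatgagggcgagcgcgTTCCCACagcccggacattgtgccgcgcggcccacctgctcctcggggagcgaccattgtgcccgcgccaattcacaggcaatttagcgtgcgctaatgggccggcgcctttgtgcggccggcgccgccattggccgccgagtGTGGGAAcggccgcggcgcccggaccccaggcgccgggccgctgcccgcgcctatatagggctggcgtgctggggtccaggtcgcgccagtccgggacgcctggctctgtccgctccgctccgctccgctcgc
The 2 matches began 226 and 83 bases before the start, on opposite strands. In the same window the letters occurred in 3 of 16 Notch list promoters (18.8%) and in 6.18% of 16918 tested genes, with 1 match in the 24 mitosis promoters, and no match overlaps another in the printed window. These matches say nothing of which sites were occupied.

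Lgr5, a Wnt-responsive receptor of supporting cells and progenitors in the inner ear, had 4.48, 5.43 and 6.09 at day 12, against 6.80, 7.91 and 8.28 at day 8. It fell by 2.33 ± 0.46 (adjusted p = 0.00771). Sox2, the factor of the prosensory domain and of neural and pluripotent progenitors, had 8.72, 8.78 and 8.52 at day 12, against 9.37, 9.22 and 9.25 at day 8. It fell by 0.61 ± 0.15 (adjusted p = 0.0212). They were the 2 falling members of 28 in the otic and supporting cell list (7.14%, against 4.66% of all genes), and both had groups without overlap. That share was near the share of all genes and is no result about the list. The call of Sox2 was lost without day 12 replicate 1 or any 1 of the day 8 arrays (adjusted p up to 0.0631). Lgr5 kept its call without each array but lost it in the fit of the 6 Dox arrays alone.

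Genes of neurons and of axon growth fell in part. Of 38 measured neuronal genes 9 fell (23.7%) and 2 rose (5.26%), and of 38 axon guidance and adhesion genes 8 fell (21.1%) and 1 rose (2.63%), while the median neuronal difference was near 0 at -0.03. Over all genes 4.66% fell and 3.39% rose, so the rises of both lists were near that share. The 9 include Isl1 and Pou4f1, which are also counted in the hair cell regulator list, and Isl1 in the Merkel cell list too. Sst, the peptide somatostatin, had 6.16, 7.14 and 8.96 at day 12, against 10.58, 11.06 and 11.21 at day 8. It fell by 3.53 ± 0.57 (adjusted p = 0.00317), which was the largest time change among the named genes in Dox iHCs. Ntrk3, the receptor of neurotrophin 3, had 4.89, 4.96 and 5.61 at day 12, against 6.93, 7.48 and 7.04 at day 8. It fell by 2.0 ± 0.25 (adjusted p = 0.000914). Nefl, the light neurofilament, had 7.60, 8.05 and 8.37 at day 12, against 10.21, 10.02 and 8.92 at day 8. It fell by 1.71 ± 0.31 (adjusted p = 0.00463), and Prph, the filament protein of sensory neurons, fell by 1.08 ± 0.17 (adjusted p = 0.00266). Every day 12 array lay below every day 8 array in all 4. For Sst, Ntrk3 and Nefl, which were also taken from the largest falls, this was a condition of that choice. Robo1, the receptor of Slit repellents, had 4.79, 5.57 and 5.94 at day 12, against 7.05, 7.62 and 7.78 at day 8. It fell by 2.04 ± 0.33 (adjusted p = 0.00327), Unc5c, a netrin receptor, fell by 1.38 ± 0.24 and Nrp2, a semaphorin receptor, by 1.19 ± 0.20. Olig3, a factor of dorsal neural progenitors, had 4.63, 4.85 and 5.43 at day 12, against 6.47, 7.15 and 6.99 at day 8. It fell by 1.90 ± 0.29 (adjusted p = 0.00231). Of the general neuronal markers, Snap25 rose, as given with the synapse list, and Rbfox3, the neuronal nuclear protein NeuN, had 8.64, 8.35 and 8.11 at day 12, against 7.53, 7.52 and 7.40 at day 8. It rose by 0.88 ± 0.16 (adjusted p = 0.00501) with no overlap and was named after its values were seen. Others did not pass the test. Tubb3, the neuronal tubulin, had 4.84, 4.76 and 4.81 at day 12, against 4.75, 4.74 and 4.55 at day 8. The difference was 0.12 ± 0.15 (adjusted p = 0.721) for Tubb3, -0.15 ± 0.24 (adjusted p = 0.787) for Elavl3, an RNA-binding protein, and -0.23 ± 0.17 (adjusted p = 0.489) for Dcx, of migrating neurons. All the falls named here and the rise of Rbfox3 held without each array in turn. Falling axon guidance genes numbered 5 without day 8 replicate 2, and the 1 rise of that list was lost without any one of day 12 replicates 1 and 2 and day 8 replicates 2 and 3, or without replicate 3 at both days. Without day 12 replicate 3 there were 4 rising neuronal genes and 2 rising axon guidance genes, and rising neuronal genes numbered 1 without any one of the 4 arrays just named.

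**Figure D3:**
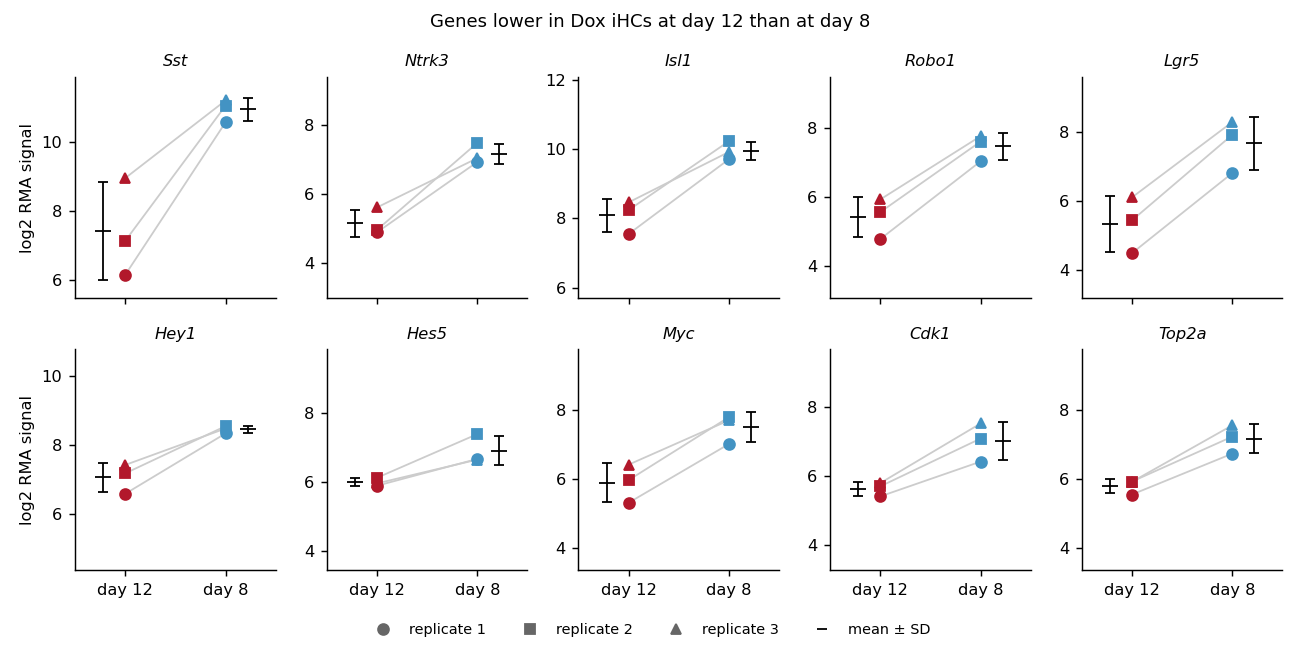
Log2 RMA signal of 10 genes that fell, with the 3 Dox iHC arrays of day 12 on the left of each panel and the 3 of day 8 on the right, grey lines joining equal replicate numbers and black bars giving the mean ± SD. In each panel all day 12 arrays lie below all day 8 arrays, with the largest gap in means for Sst. For genes taken from the largest falls, among them Sst, the lack of overlap was a condition of the choice.

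Other lists of progenitor, growth and non-sensory genes also had members that fell. Over all genes 4.66% fell, and 8.06% with the replicate block. The neural progenitor and glia list had 6 of 22 lower (27.3%), among them Nes, the filament protein nestin, which fell by 0.74 ± 0.18 (adjusted p = 0.0195), and Vim, vimentin, which fell by 0.83 ± 0.18 (adjusted p = 0.0119). Those 6 include Hes1 and Hes5, which are also counted in the Notch list. The imprinted and insulin-like growth factor list had 8 of 18 lower (44.4%), including Grb10, an adaptor that restrains growth factor receptors, with 5.54, 6.27 and 7.08 at day 12, against 7.69, 8.21 and 8.30 at day 8 and a fall of 1.77 ± 0.31, and Igf2r, the receptor that clears Igf2, which fell by 0.70 ± 0.19. The hypoxia and glycolysis list had all 19 differences below 0 but only 2 called falls (10.5%; 4 with the block), Slc2a3, a glucose transporter, by 1.52 ± 0.32 and Pgk1, a glycolytic enzyme, by 0.55 ± 0.15. In cholesterol synthesis 2 of 16 fell (12.5%; 5 with the block), Hmgcs1 by 0.66 ± 0.11 and Fdps by 0.58 ± 0.14, both enzymes of the mevalonate route. In control EBs 12 of these 16 fell, with a median of -0.72, against -0.2 in Dox iHCs. Ptn, the growth factor pleiotrophin, had 6.49, 6.79 and 7.11 at day 12, against 8.00, 8.72 and 8.48 at day 8. It fell by 1.60 ± 0.27 (adjusted p = 0.00367), and Arhgap28, a GTPase-activating protein, had 4.56, 4.92 and 5.54 at day 12, against 6.86, 7.11 and 7.15 at day 8. It fell by 2.04 ± 0.19 (adjusted p = 0.0002). Both were taken from the 20 largest falls, for which arrays without overlap were a condition. Falling neural progenitor genes numbered 1, 4, 0 and 2, and imprinted genes 2, 4, 2 and 2, without day 12 replicate 1, day 12 replicate 2, day 8 replicate 2 and day 8 replicate 3 in that order. Ptn, Arhgap28, Hmgcs1 and Grb10 kept their calls without each array; Nes, Vim, Igf2r, Slc2a3, Pgk1 and Fdps each lost it without at least 1 of them (adjusted p up to 0.0988, 0.0572, 0.191, 0.0513, 0.131 and 0.109).

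The lists of blood and endothelium, mesenchyme and matrix, mesoderm and cardiac cells, macrophages, pluripotency, endoderm and surface epithelium had lower means in Dox iHCs than in control EBs at both days. The skeletal muscle list averaged 5.18 at day 12 and 5.14 at day 8 in Dox iHCs, against 4.52 and 4.50 in control EBs of the same days, and the retinal list 4.08 at both days, against 4.09 and 4.05. The blood and endothelium list had 7 of 23 lower at day 12 (30.4%, against 4.66% of all genes), and 12 with the replicate block (against 8.06% of all genes). It averaged 4.81 to 5.10 on the day 12 arrays, against 5.23 to 5.68 on the day 8 arrays, 6.13 and 6.18 in day 12 control EBs and 7.11 and 7.21 in day 8 control EBs. Kdr, a VEGF receptor of endothelium and mesoderm, had 5.22, 5.89 and 4.82 at day 12, against 6.96, 7.41 and 6.74 at day 8. It fell by 1.73 ± 0.38 (adjusted p = 0.0128), and Hbb-bh1, an embryonic globin, had 3.92, 3.83 and 3.95 at day 12, against 4.88, 4.75 and 4.36 at day 8. It fell by 0.76 ± 0.16 (adjusted p = 0.00923). The endothelial markers Pecam1 and Cdh5 had differences of 0.03 ± 0.22 (adjusted p = 0.959) and -0.69 ± 0.56 (adjusted p = 0.545). The mesenchyme and matrix list had 4 of 29 lower (13.8%), 7 with the block, and averaged 5.22 to 5.73 at day 12, against 5.55 to 5.95 at day 8 and 7.69 to 8.49 in control EBs. Its members Col1a1 and Postn, a matrix collagen and periostin, had differences of -0.10 ± 0.20 (adjusted p = 0.846) and -0.01 ± 0.35 (adjusted p = 0.995), whereas Cdh11, a mesenchymal cadherin, had 7.37, 7.22 and 7.42 at day 12, against 8.46, 8.96 and 8.60 at day 8. It fell by 1.34 ± 0.20 (adjusted p = 0.00187). The macrophage list had 0 of 20 called by limma, with 1 at an unadjusted p under 0.05, and averaged 4.50 to 4.62 at day 12, against 4.39 to 4.49 at day 8 and 4.98 to 5.84 in control EBs. The pluripotency list had 1 of 23 lower (4.35%, near the 4.66% of all genes), which was Sox2, and with the block 3 lower and 1 higher. Nanog had 4.39, 5.01 and 5.02 at day 12, against 4.13, 4.59 and 5.72 at day 8, with overlap. The endoderm list, the surface epithelium list and the list of retinal pigment epithelium and photoreceptors had 0 called members of 25, 18 and 14 by limma, with 5, 2 and 0 at an unadjusted p under 0.05. With the block 3 endoderm members were lower, 4 surface epithelium members lower and 1 higher, and 0 of the retinal list called. Of all genes, 8.06% were lower and 6.1% higher with the block. The part of such cells in the falls of the other lists was not tested. Called blood and endothelium members numbered 2 without day 12 replicate 1 and 1 without day 8 replicate 2, Kdr losing its call in both cases (adjusted p up to 0.0686), and called mesenchyme members 2 without day 12 replicate 1, 9 without day 12 replicate 3, 8 without day 8 replicate 1 and 1 without day 8 replicate 2 or 3.

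**Figure D4:**
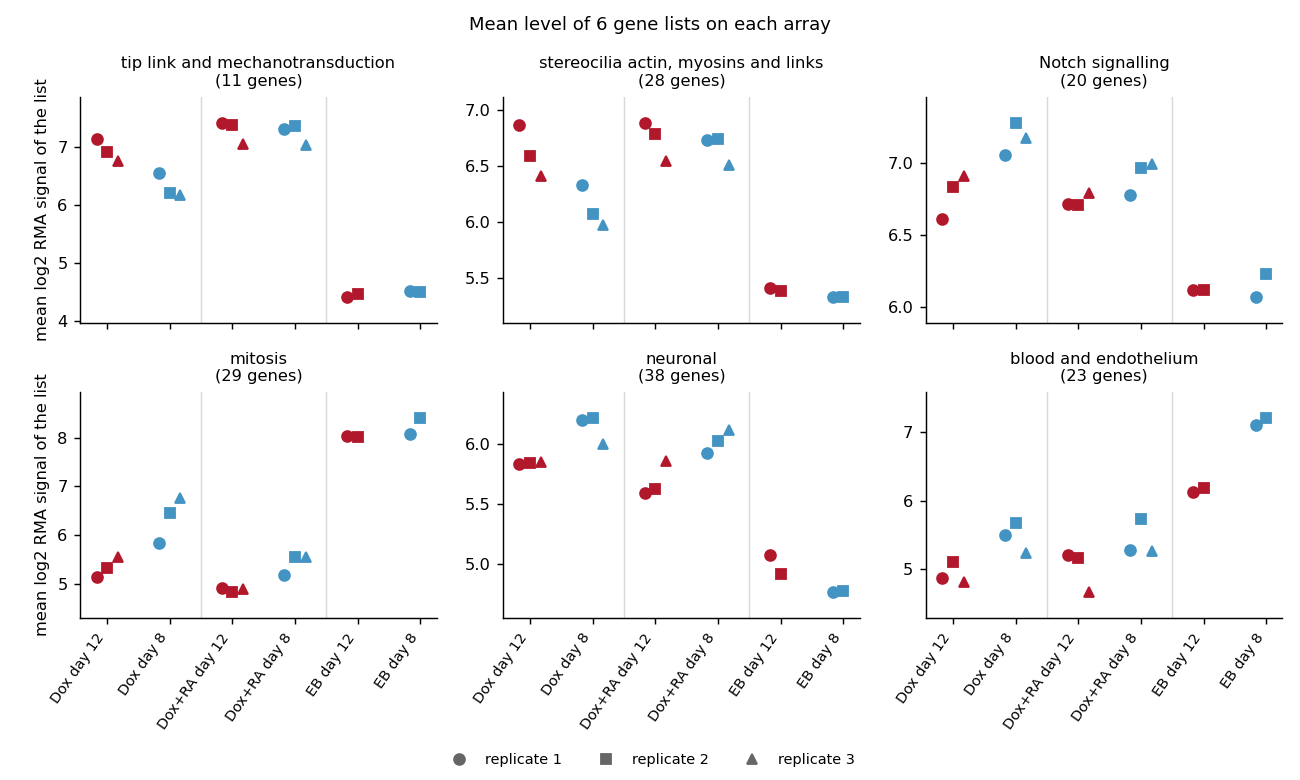
Mean log2 RMA signal of 6 gene lists on every array of the series, day 12 in red and day 8 in blue, with symbols for the replicate numbers. The tip link list includes Myo7a, the gene of the sort gate. In Dox iHCs the tip link list lies at 6.76 to 7.13 at day 12 and 6.17 to 6.56 at day 8, and the mitosis list at 5.14 to 5.56 and 5.84 to 6.76, while in Dox+RA iHCs the tip link list lies at 7.06 to 7.42 at day 12 and 7.04 to 7.36 at day 8.

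The same 4 days were also sampled with RA and in control EBs, and these time changes share no arrays with each other. In Dox+RA iHCs 972 genes were called over time (4.38%), 394 higher (1.78%) and 578 lower (2.61%), and in control EBs 831 (3.75%), 516 higher (2.33%) and 315 lower (1.42%). Of the 751 genes that rose in Dox iHCs, 94.9% were also above 0 in Dox+RA iHCs, where 57.0% of all genes were, and 209 were called there in the same direction, 27.8% of the Dox rises and 53% of the Dox+RA rises. Of the 1034 that fell, 94.4% were below 0 in Dox+RA iHCs, where 43.0% of all genes were, and 302 were called there in the same direction, 29.2% of the Dox falls and 52.2% of the Dox+RA falls. None of the 1785 was called in the opposite direction. In control EBs 39 of the rises and 43 of the falls were called in the same direction, and 5 and 20 in the opposite one. Across all genes the time change of Dox iHCs correlated with that of Dox+RA iHCs at 0.668 and with that of control EBs at 0.174, as a description over genes, which are not independent. The Dox+RA change was at the median 0.61 times the Dox change over the called genes.

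**Figure D5:**
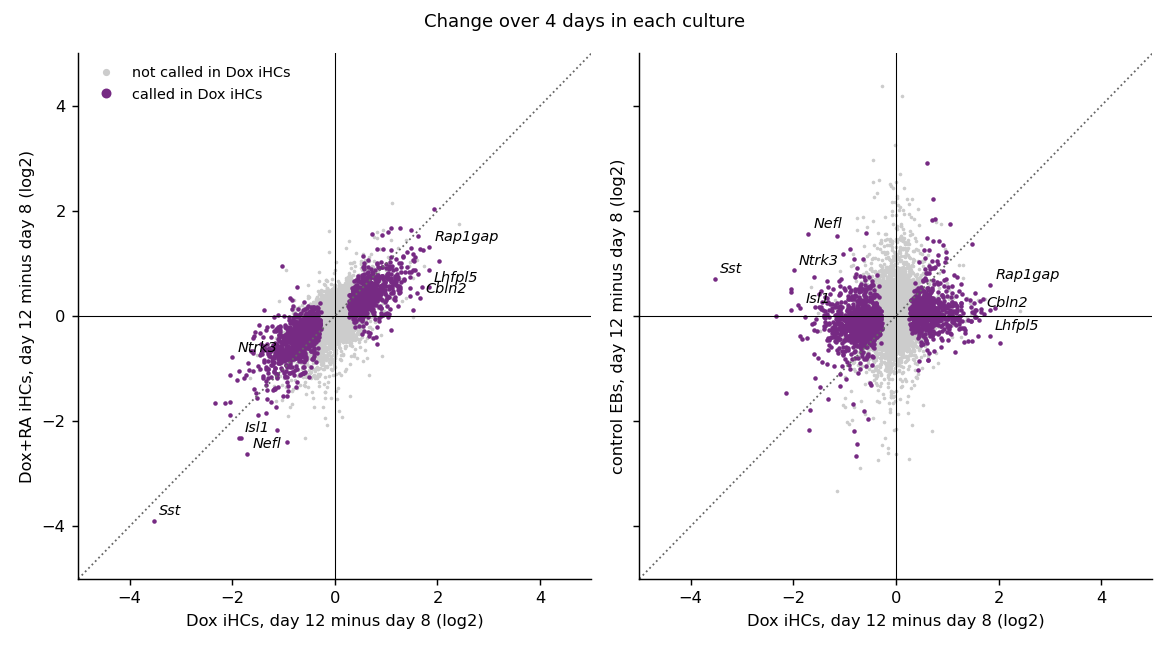
Change from day 8 to day 12 (day 12 minus day 8, log2) of each gene tested in Dox iHCs on the horizontal axis, against Dox+RA iHCs on the left plot and control EBs on the right plot, with called genes of Dox iHCs in purple and a dotted line at equal change. Called genes mostly keep their side of 0 in Dox+RA iHCs (94.9% of rises, 94.4% of falls) and less so in control EBs (61.1% and 70.8%). Of all genes, 57.0% are above 0 and 43.0% below 0 in Dox+RA iHCs, and 50.5% and 49.5% in control EBs.

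A test of the difference between the Dox and Dox+RA time changes called 2 genes (0.00902%), 15 with the replicate block, 9 without day 8 replicate 1, 5 without day 12 replicate 3 and 1 without any other single Dox array. Cbln2 rose by 1.66 in Dox iHCs and had a change of 0.34 in Dox+RA iHCs, a difference of 1.32 ± 0.19 (adjusted p = 0.0495). Mx2, an interferon-induced GTPase, had a change of 0.09 in Dox iHCs and fell by 1.80 in Dox+RA iHCs, a difference of 1.89 ± 0.17 (adjusted p = 0.000536). Lhfpl5 and Cdh23 changed by 1.83 and 0.66 in Dox iHCs and had changes of 0.55 and -0.38 in Dox+RA iHCs, and neither difference passed the test (adjusted p = 0.661 and 0.373). Levels at day 8 are given beside these changes. The tip link list averaged 6.17 to 6.56 in day 8 Dox iHCs and 7.04 to 7.36 in day 8 Dox+RA iHCs, and the mitosis list 5.84 to 6.76 and 5.17 to 5.54. At day 12 the tip link list averaged 6.76 to 7.13 in Dox iHCs and 7.06 to 7.42 in Dox+RA iHCs, and the mitosis list 5.14 to 5.56 and 4.83 to 4.91.

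The time change of Dox iHCs differed from that of control EBs in 630 genes (2.84%), 229 with a positive difference (1.03%) and 401 with a negative one (1.81%), and in 1430 with the replicate block. Of these, 236 were called over time in Dox iHCs, 93 higher and 143 lower, and 350 were not called in Dox iHCs but were called in control EBs. Among the hair bundle genes Lhfpl5 differed by 2.20 ± 0.46 (adjusted p = 0.0183) and Atp2b2 by 1.28 ± 0.25 (adjusted p = 0.011), with changes of -0.37 and -0.05 in control EBs. Among the neuronal genes Sst, Ntrk3 and Nefl had changes of 0.71, 0.87 and 1.56 in control EBs, differences of -4.24 ± 0.91 (adjusted p = 0.0199), -2.86 ± 0.39 (adjusted p = 0.00105) and -3.27 ± 0.48 (adjusted p = 0.00187). Top2a differed by -1.34 ± 0.29 (adjusted p = 0.0203), with a change of -0.04 in control EBs, and was the 1 member of the mitosis list whose difference passed. Ush1g (adjusted p = 0.0599), Cdk1 (adjusted p = 0.0656) and Hey1 (adjusted p = 0.0688) did not pass. Control EBs were neither treated nor sorted, and the treatment and the sort cannot be told apart in these differences. The count was 414 without day 8 replicate 2 and 1068 without day 12 replicate 3.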

How the data were processed

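RNA of 16 samples was hybridised to Affymetrix Mouse Gene 2.1 ST arrays. The deposited values are log2 RMA signals made by the authors in Affymetrix Expression Console (named in the submitters' processing notes); the version is not given in the sources used here. RMA corrects background, sets arrays to a common distribution and compresses changes at low signal. Values ran from 1.44 to 12.26 with 0 missing, array medians from 4.67 to 4.82, and the table holds no detection calls. The number of arrays limits the precision, and no strip or scan batch is given in the sources used here.

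Of 33708 entries, 23521 carry 1 gene symbol and 10187 none or several, which were left out; 23328 matched RefSeq by Entrez ID. For 1082 genes with several entries the one with the highest mean was used, leaving 22180 genes. The fit used limma 3.58.1 under R 4.3.3, with 6 group means and the default eBayes step, and genes were called at a Benjamini-Hochberg adjusted p under 0.05; a test on simulated data preceded the fit. Equal replicate numbers in the labels were checked for pairing by the correlation of deviations from group means. It was above 0.1 in all 3 equal-numbered pairs of Dox arrays and ran from -0.415 to 0.089 in the unequal ones, so a replicate block was run beside the main fit. Deviations within a group cancel out, so the values of the unequal pairs follow in part from those of the equal ones.

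The members and the 33 gene lists were chosen with earlier results of these data known. Some genes stand in several lists, so the counts of different lists are not separate results. Named genes are the 3 induced factors and Myo7a, the 20 largest rises and falls among called genes with non-overlapping arrays, up to 6 called members of each list (2 of highest level where none was called), the 8 largest differences of each sign between time changes, and the markers listed for each cell type. Predicted genes, microRNAs and receptors of smell were passed over, and the text gives a part. Alternatives were other scalings, filters, spreads, samples in the fit, call rules and each Dox array left out.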

Additional observations from a re-analysis of the deposited data

Results flagged for a closer look

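The time change (day 12 minus day 8) differed between Dox iHCs and control EBs, by limma's test of the difference itself, in these genes of the report. Positive differences, with the change in Dox iHCs more upward, were 2.20 for Lhfpl5, 1.96 for Cldn9, 1.83 for Krt20, 1.66 for Hbb-bh1, 1.59 for Cbln2, 1.28 for Atp2b2, 1.24 for Rap1gap and 1.18 for Pclo on the log2 scale. Hbb-bh1 fell by 0.76 in Dox iHCs and fell by 2.43 in control EBs. Negative differences were -4.24 for Sst, -4.07 for Alb, -3.27 for Nefl, -2.86 for Ntrk3, -2.55 for Robo1, -2.50 for Arhgap28, -2.34 for Ptn, -2.12 for Olig3, -2.03 for Isl1, -2.01 for Cdh11, -1.88 for Cdkn1c, -1.75 for Unc5c, -1.54 for Notch2, -1.34 for Top2a and -1.10 for Prph. Alb had a change of 0.12 in Dox iHCs and rose by 4.19 in control EBs. Genes that the naming rule gives and the report does not describe also differed, among them Rxfp2 by -4.65, Lox by -3.27, Osr1 by -3.01, Slitrk6 by -2.91, Grap2 by 2.97, Cited4 by 2.90 and Hbb-y by 2.62. Rxfp2 had a change of -0.27 in Dox iHCs and 4.38 in control EBs, and Grap2 of 0.25 and -2.71.

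Between Dox iHCs and Dox+RA iHCs the time change differed by 1.32 in Cbln2 and by 1.89 in Mx2. Mx2 had a change of 0.09 in Dox iHCs and -1.80 in Dox+RA iHCs.

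Table entries with no gene symbol or several were outside the comparisons. Of 10187 such entries, 369 were called between day 12 and day 8 of Dox iHCs (3.62%), 181 higher and 188 lower.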

How the results depend on the processing

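The number of genes called between day 12 and day 8 was 1785. It was 420 in a fit of the 6 Dox arrays alone, 2994 in that fit with a replicate block, 3139 with the replicate block in the full fit, 3023 with array weights, 568 at an adjusted p under 0.01 and 277 with a change of at least 2-fold. Leaving out each Dox array in turn gave 644 to 2598. Median scaling, quantile normalization, leaving out dim genes, keeping every entry and an intensity trend gave 1650 to 1917. Leaving out replicate 3 at both days (1576) and testing all table entries (2064) were chosen after seeing the data. Genes called in every planned setting that keeps the threshold and that tested them numbered 318, 117 higher and 201 lower. Genes left out as dim were not tested in that setting. The fit that keeps every entry was not counted among these settings.

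The number of genes whose time change differed from control EBs was 630. It was 1430 with the replicate block, 389 without dim genes, 1021 with array weights and 414 to 1068 without each Dox array in turn. Genes whose time change differed from Dox+RA iHCs numbered 2. They were 15 with the replicate block, 0 without dim genes, 1 with every entry kept, 1 with an intensity trend, 24 with array weights and 1 to 9 without each Dox array in turn; that count of 0 is from limma, in which 721 of the 11090 genes had an unadjusted p under 0.05. The replicate block ended no call of a named gene between the days.

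Of the 122 called among the 150 genes the naming rule gives, 38 kept the call in each of the 14 planned settings that tested them. A further 69 lost it only without 1 array or in the fit of 6 arrays. Dim genes were not tested in the setting that leaves them out, and the fit of every entry is not among the 14. The fit of the 6 Dox arrays alone ended 77 of the 122 calls, and with a replicate block it ended 1. No called named gene changed direction in any setting. The causes of these shifts were not tested, beyond the smaller number of arrays in the fits that leave some out. Array signal limits what can be read from dim genes.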
